A study of Homo sapiens with 24 samples.

Results

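MB468res-R8 (R8) cells were compared with themselves at 2 times within homocysteine (Hcy) medium, 12 h against 2 h, over every gene of the count table that is not a spike-in. The table held 26645 such gene entries, of which 14741 passed a filter on low counts and were tested, and the other 11904 were too low for a test. MB468 is the MDA-MB-468 line of triple-negative breast cancer, which stops growing when methionine (Met) is replaced by its precursor Hcy. R8 is 1 revertant clone of MB468, obtained by long culture in Hcy medium, that goes on growing without Met. Both lines were grown in Met+ medium (100 µM Met, 0 h) and moved to Met-Hcy+ medium (370 µM DL-Hcy, no Met) for 0.5, 2, or 12 h, always with dialyzed serum. Each of these 8 groups had 3 libraries, and R8 at 2 h (3 libraries) and R8 at 12 h (3 libraries) form the comparison. The labels number the libraries of a group without saying what separates them, so p-values measure the spread between these libraries, which may be technical. No sample used here was kept in Met+ medium for 12 h, and the effects of Hcy medium, of time in culture, and of the medium change itself cannot be told apart.

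The deposited counts summed to between 16655060 and 36496655 in the R8 libraries at 2 h and to between 20446414 and 26160520 at 12 h (exact two-sided permutation p = 0.9). Spike-in RNAs took 0.266 ± 0.022% of the counts at 2 h and 0.256 ± 0.036% at 12 h (SD, n = 3 each, exact two-sided permutation p = 0.6). RNAs of a list taken to lack a poly(A) tail took 0.0171 ± 0.0012% at 2 h and 0.0120 ± 0.00074% at 12 h. The groups were apart at the smallest p that 3 against 3 allows, 0.1 (exact permutation test). The histone genes HIST1H2BK, HIST1H1C, and HIST1H2AC made up most of these counts, with 7231, 2022, and 1539 reads over the 2 h libraries. At 12 h they held 5063, 1279, and 960, so the gap largely followed these genes. Levels in CPM are counts per 1e6 of the TMM library size, which the processing section describes. The epithelial markers of the breast summed to between 13420 and 14500 CPM at 2 h and to between 12740 and 13400 at 12 h. Of the 17, only PGR had no count at 2 h. Immune, fibroblast, and endothelial markers summed to at most 69.0 CPM per list in any R8 library, and each list was lower at 12 h: immune from 58.9 to 68.5 at 2 h against 30.7 to 32.4, fibroblast from 60.8 to 69.0 against 29.6 to 38.9, and endothelial from 60.2 to 64.9 against 10.2 to 12.3. Each sum was mostly 1 gene. CD14 (immune), COL1A1 (fibroblast), and KDR (endothelial) had 4270, 4730, and 4255 reads over the 2 h libraries and 1571, 2335, and 591 at 12 h. Not every marker fell: the immune marker CD68 was higher by 0.45 on the log2 scale, and the endothelial marker PECAM1 was at 0.45. The endothelial marker EMCN was at 0 at both times, and LYZ, NKG7, MS4A1, COL1A2, COL3A1, and DCN were at 0 at 12 h. In bulk libraries fewer cells that express a gene and less of its RNA per cell cannot be told apart, and the part of these markers in the results was not tested.

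Met is made from Hcy by remethylation, and Met in turn gives S-adenosylmethionine, the methyl donor of the cell. Lack of an amino acid can raise the transcription factor ATF4, which induces genes of amino acid supply. A change of medium by itself raises immediate early genes, a set of transcription factors and growth factors whose messages are short-lived and appear within minutes. Sterol and fatty acid (FA) enzymes follow the SREBP transcription factors, which sterols hold back.

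Values below are normalized counts, which are counts scaled to a common library size. Differences are log2 fold changes of 12 h over 2 h given as value ± standard error (SE), levels at other times are means ± SD of 3 libraries, and adjusted p-values are from edgeR's quasi-likelihood test with the Benjamini-Hochberg adjustment over the 14741 genes. A gene was called at an adjusted p under 0.05. From 2 h to 12 h, 9213 genes were called, or 62.5% of those tested. Of these, 4526 were higher at 12 h (30.7%) and 4687 lower (31.8%). The calls that also reached 2-fold were uneven: 1320 were lower (8.95%) and 278 were higher (1.89%), which makes 1598 in all (10.8%). The median log2 difference was 0.39 among genes called higher, -0.62 among genes called lower, and -0.015 over all genes tested. In 9670 genes (65.6%) the 3 libraries at 12 h did not overlap the 3 at 2 h. With most genes called, the count of a list is read beside these shares. With spike-in totals as library sizes, 3457 of the 14741 genes were higher and 3049 lower. List counts under that scaling are read beside these.

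**Figure D1:**
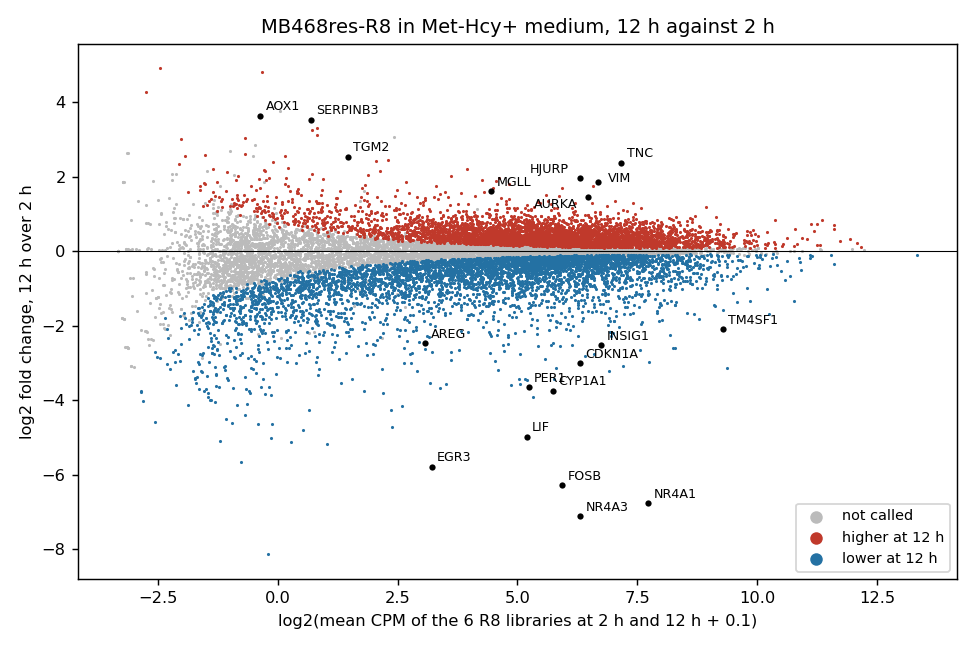
Log2 fold change of 12 h over 2 h in R8 against the mean level of each of the 14741 genes on a log2 CPM scale; red and blue points were called higher and lower, gray points were not called, and black points are named. The named falls (NR4A3 -7.11, NR4A1 -6.76, FOSB -6.28) reach farther from 0 than the named rises (AOX1 3.63, SERPINB3 3.53, TNC 2.37).

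Immediate early transcription factors supplied 5 of the 12 deepest falls among genes that were at 1 CPM or more at the higher time and whose groups did not overlap. Their list also holds immediate early genes that are not transcription factors, such as CYR61, CTGF, ZFP36, and BTG2. Of its 32 tested, 27 were lower at 12 h, 1 was higher, and the median log2 difference was -1.68. NR4A1, an orphan nuclear receptor induced by many stimuli, had 10200.0, 11171, and 7296 at 2 h and 80.5, 95.7, and 90.6 at 12 h. The 12 h libraries lay far below every 2 h library, a log2 difference of -6.76 ± 0.33 (adjusted p = 5.30e-12). Its paralog NR4A3 went from 3765, 3861, and 3096 to 22.4, 25.1, and 30.2, a difference of -7.11 ± 0.57 (adjusted p = 5.60e-09). FOSB, a partner of JUN in the AP-1 factor, had 2727, 3351, and 2121 at 2 h and 31.3, 39.9, and 35.9 at 12 h, a difference of -6.28 ± 0.30 (adjusted p = 4.11e-12). These genes were also well below their level in Met+ medium: at 0 h NR4A1 was at 4948 ± 1522, NR4A3 at 2353 ± 749.9, and FOSB at 1247 ± 299 (SD, n = 3). The zinc finger factors EGR3 and EGR4 differed by -5.78 ± 0.39 and -5.17 ± 0.33, and their 12 h libraries held 23 reads of EGR3 and 7 of EGR4 in all.

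The depth of the fall was not uniform within the family. EGR1, which had stood at 18938 ± 1235 at 0.5 h, was at 607, 707, and 644 at 2 h and 179, 288, and 189 at 12 h, so that most of its decline came before 2 h with a further change of -1.61 ± 0.14 after it (adjusted p = 1.76e-08). FOS, at 10399 ± 638 at 0.5 h, had 232, 242, and 205 at 2 h and 75.1, 61.5, and 53.8 at 12 h, and differed by -1.85 ± 0.16 (adjusted p = 3.30e-10). The differences were -1.74 for JUN, -2.27 for KLF4, a factor of epithelial differentiation, and -2.83 for ATF3, a stress-induced repressor. MYC, which drives growth and ribosome production, had 10947, 12528, and 11538 at 2 h and 7806, 7318, and 8121 at 12 h, a modest difference of -0.59 ± 0.052 (adjusted p = 1.30e-11). JUNB was the member that was called higher, at 0.17 (adjusted p = 0.0318), with 1501, 1425, and 1573 at 2 h and 1651, 1629.6, and 1756 at 12 h, and with spike-in totals as library sizes no member was. The stretch before the start of EGR1 is shown because it carries the CArG box, the element bound by serum response factor, in duplicate; the boxes are in capitals.
EGR1 (GRCh38.p14, chr5:138465349-138465478, plus strand): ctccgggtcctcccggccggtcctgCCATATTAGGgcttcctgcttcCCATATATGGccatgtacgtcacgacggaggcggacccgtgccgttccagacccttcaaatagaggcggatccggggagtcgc
The CArG box was searched on both strands in the 250 bases before each start in the RefSeq promoter table, and 1.14% of all 27305 promoters held a match. It was present in 2 of the 20 called-lower genes of the immediate early list that have a promoter there (27 were called lower), or 10.0%. Such a match describes letters and not a binding event.

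Ligands of the epidermal growth factor receptor (EGFR) family fell together, in a cell line known for its very high EGFR level. The 14 tested genes were those of the receptor family, its ligands, and the proteases ADAM10 and ADAM17. Of these, 13 were lower at 12 h, 1 was higher, and the median was -0.94. AREG (amphiregulin) had 302, 346, and 319.7 at 2 h and 47.4, 56.9, and 69.9 at 12 h, a log2 difference of -2.48 ± 0.17 (adjusted p = 3.69e-15). Every 12 h library was below every 2 h library, and at 0.5 h the gene had been at 92.7 ± 25.5, which is also below its 2 h level. HBEGF, a membrane-anchored ligand, had 995, 1055, and 959 at 2 h and 183, 188, and 159.5 at 12 h, and differed by -2.51 ± 0.095 (adjusted p = 4.41e-22). The ligands EPGN, EREG, and NRG2 differed by -2.16, -1.72, and -2.63, and NRG2 was at most 33.6 in any of the 6 libraries. EGFR itself was the member that was higher, from 69917, 72331, and 67461 to 86667, 84158, and 83391 (0.28 ± 0.041, adjusted p = 1.71e-07). The AREG promoter is shown for its cyclic AMP response element (TGACGTCA, in capitals). On either strand, 1.77% of all promoters and 2.8% of those of tested genes held it.
AREG (GRCh38.p14, chr4:74445006-74445135, plus strand): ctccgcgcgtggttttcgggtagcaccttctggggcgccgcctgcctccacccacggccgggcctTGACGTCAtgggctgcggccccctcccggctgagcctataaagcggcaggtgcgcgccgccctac

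Feedback inhibitors of the MAP kinase pathway moved less evenly, with 13 of 22 lower, 4 higher, and a median of -0.29. DUSP16, a phosphatase of stress-activated kinases, had 4346, 4813, and 4531 at 2 h and 981, 1094, and 976 at 12 h, a difference of -2.17 ± 0.060. DUSP1 and DUSP4, which remove phosphate from MAP kinases, were at -1.71 and -1.61, and PHLDA1 was at -1.44. All of these were called, with adjusted p-values of 1.10e-26, 6.78e-15, 3.39e-14, and 7.39e-27. DUSP6, a phosphatase that ERK induces, was at 203, 237, and 219 at 2 h and 251, 261, and 259 at 12 h and was not called (adjusted p = 0.0649). DUSP2 was higher by 1.08 ± 0.18, at 34.1, 29.1, and 37.9 at 2 h and 78.7, 67.2, and 63.2 at 12 h. With spike-in totals as library sizes, 7 members of this list were lower.

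Cytokines fell as well. Of 24 chemokines and feedback genes of the NF-kB pathway, 15 were lower at 12 h and 3 higher, with a median of -0.87. LIF, a cytokine of the interleukin-6 family, had 1742, 1706, and 1382 at 2 h and 40.2, 69.5, and 47.2 at 12 h, a difference of -4.98 ± 0.25 (adjusted p = 8.00e-12). CCL20, a chemokine for lymphocytes and dendritic cells, went from 187, 165, and 216 to 6.26, 17.1, and 17.0, and IL6 from 261, 278, and 236 to 53.6, 60.4, and 64.2. In both, the groups did not overlap, and they differed by -3.82 ± 0.21 and -2.13 ± 0.17. CXCL2, a neutrophil chemokine, was lower, at -1.93 ± 0.24. NFKBIZ, an atypical inhibitor of NF-kB, went the other way, at 198, 135, and 163 at 2 h and 402, 375, and 367 at 12 h (1.23 ± 0.12, adjusted p = 7.76e-11). TNFRSF1B, a receptor of tumor necrosis factor, had 30.9, 38.8, and 35.0 at 2 h and no read in any library at 12 h, which makes the gene at least 36.3-fold lower when 3 reads over the group are taken as the limit of a count of 0. Interferon-stimulated genes were mixed, with 12 of 28 lower and 4 higher, and OASL, related to the antiviral oligoadenylate synthetases, had the deepest fall, at 437, 525, and 339 at 2 h and 35.8, 42.1, and 26.4 at 12 h (-3.66 ± 0.17). ISG20, IRF1, and BST2 of this list were at -1.21, -0.93, and -0.97.

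**Figure D2:**
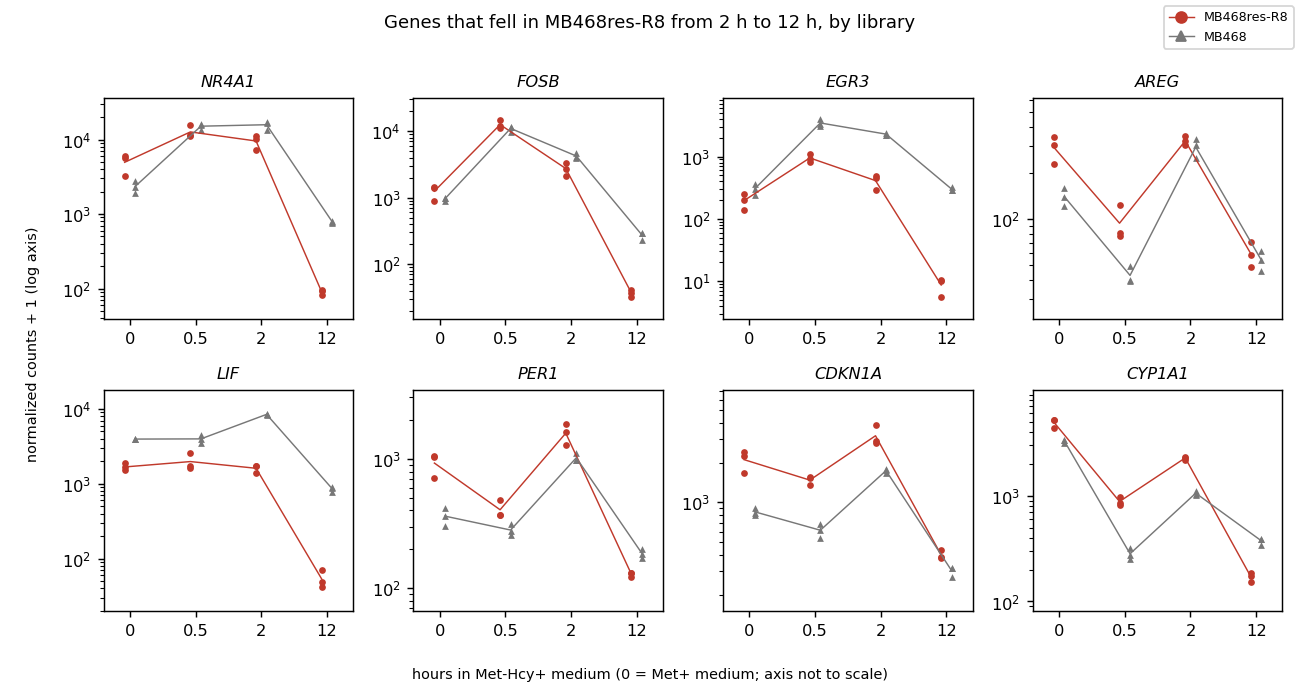
Normalized counts plus 1 on a log axis for 8 genes that fell in R8, at 0 (Met+), 0.5, 2, and 12 h; red circles are R8 libraries, gray triangles MB468 libraries, 3 per group, and lines join the means. In each panel the 3 R8 libraries at 12 h lie below the 3 at 2 h, and for NR4A1, FOSB, EGR3, and LIF they also lie below the 3 MB468 libraries at 12 h.

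Genes of the circadian clock moved in both directions, mostly down. In the clock, dimers of CLOCK or NPAS2 with ARNTL or ARNTL2 activate the PER and CRY genes, whose proteins then shut the activators off. Of 22 tested, 15 were lower, 4 higher, and the median was -0.57. PER1 had 1609.9, 1862, and 1281 at 2 h and 121, 129.8, and 131 at 12 h, a difference of -3.65 ± 0.18 (adjusted p = 4.22e-12), and PER2 had 2325, 2541, and 1926 at 2 h and 284, 257, and 235 at 12 h, a difference of -3.13 ± 0.14 (adjusted p = 3.82e-13). Both were highest at 2 h among the R8 times: PER1 had been at 929.7 ± 193 at 0 h and 404 ± 64.7 at 0.5 h, and PER2 at 1311 ± 233 and 728 ± 88.9. DBP, an output factor of the clock, RORA, a nuclear receptor that activates ARNTL, and CRY1 were lower, at -1.14 ± 0.12, -1.82 ± 0.25, and -0.45 ± 0.065. ARNTL2 had 102, 88.7, and 77.1 at 2 h and 247, 253, and 237 at 12 h, higher by 1.45 ± 0.14 (adjusted p = 4.75e-12), NPAS2 was higher by 0.99 ± 0.072, and CLOCK by 0.54 ± 0.061. ARNTL was at 481, 469, and 464 at 2 h and 467, 492, and 463 at 12 h and was not called (adjusted p = 0.947). The E-box (CACGTG) is the element that CLOCK and ARNTL bind. On either strand, 6.49% of all promoters and 8.63% of those of tested genes held it. It was found in 4 of 13 called-lower clock genes with a promoter (30.8%), while 15 were called lower. In other lists the share ran from 0.0% (cytosolic ribosomal proteins called higher) to 25.0% (heat shock genes called higher, 3 of 12). Whether the clock genes differ from these was not tested. The promoter of PER1 is shown with the E-box in capitals.
PER1 (GRCh38.p14, chr17:8152405-8152654, minus strand): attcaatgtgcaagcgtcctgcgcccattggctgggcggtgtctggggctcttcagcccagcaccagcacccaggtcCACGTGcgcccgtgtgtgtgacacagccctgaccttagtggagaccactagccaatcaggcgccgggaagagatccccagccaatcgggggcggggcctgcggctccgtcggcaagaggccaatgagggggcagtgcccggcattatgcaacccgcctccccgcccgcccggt

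Among 16 G1 cyclins and CDK inhibitors, 7 were lower and 4 higher with a median of -0.034, and with spike-in totals as library sizes 3 were lower. CDKN1A (p21), an inhibitor of cyclin-dependent kinases, had 2896, 3888, and 2814 at 2 h and 378, 384, and 433 at 12 h, a difference of -3.01 ± 0.15 (adjusted p = 4.41e-12), against 2107 ± 378 at 0 h. CDKN2B (p15), which blocks CDK4 and CDK6, had 1572, 1736, and 1635 at 2 h and 539, 578, and 643 at 12 h, and differed by -1.49 ± 0.061 (adjusted p = 5.32e-23). CDKN2D (p19) was at -0.70, and E2F4, a pocket-protein partner, at 0.49, the highest of the list. The p53 targets, of which CDKN1A is one, had 19 of 27 lower and 3 higher, with a median of -0.43 (12 lower with spike-in totals). TP53INP1, PLK3, and the death receptor TNFRSF10B were at -1.49, -1.47, and -1.42. SESN1, a sestrin that restrains mTORC1, was one of the higher members, at 0.53 ± 0.12.

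Genes of G2 and mitosis rose at 12 h. Of 40 tested, 36 were higher at 12 h, beside 30.7% of all genes, 1 was lower, and the median was 0.63. AURKA, the kinase that builds the spindle poles, had 1059.8, 1071, and 1119 at 2 h and 2942, 3034, and 2874 at 12 h, a difference of 1.45 ± 0.046 (adjusted p = 1.06e-26). Its 12 h libraries were also above those of Met+ medium, where AURKA was at 1175 ± 48.1 (SD, n = 3), and above 0.5 h, where it was at 2053 ± 61.0. MKI67, which coats mitotic chromosomes and marks cycling cells, had 7000.4, 6364, and 6840.3 at 2 h and 15774, 15033, and 15339 at 12 h and differed by 1.19 ± 0.047 (adjusted p = 4.48e-23). CKAP2, a microtubule protein, and CDCA8, a subunit of the chromosomal passenger complex, were higher by 1.25 ± 0.061 and 1.21 ± 0.044. CCNB1 and CDK1, the cyclin and kinase that start mitosis, both rose. CCNB1 had 3838, 3793, and 4148 at 2 h and 6894, 7187, and 6844 at 12 h (0.83 ± 0.048). CDK1 had 3877, 3923, and 4192 at 2 h and 5167, 5569, and 5198 at 12 h (0.41 ± 0.048). PLK1 rose by 0.78 ± 0.041, and HJURP, the chaperone that loads the centromeric histone and no member of the list, had the smallest p-value of all rises, with 725, 737, and 774 at 2 h and 2969, 2832, and 2804 at 12 h (1.95 ± 0.056, adjusted p = 4.33e-28). CDC25B, a phosphatase that activates CDK1, was the member that was lower, at 3292, 3556, and 3333 at 2 h and 2657, 2519, and 2525 at 12 h (-0.40 ± 0.047, adjusted p = 9.02e-10).

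Many promoters of this group carry the cell cycle homology region (CHR; TTTGAA), the element bound by the DREAM and MuvB complexes that time mitotic genes. Of the 36 members called higher, 31 have an entry in the RefSeq promoter table, and 16 of these (51.6%) held a CHR on either strand in the 250 bases before the start, compared with 13.6% of all 27305 promoters. The 4 with the largest rises among the 16 are shown, with the CHR in capitals (TTCAAA where it lies on the other strand).
CDCA8 (GRCh38.p14, chr1:37692386-37692515, plus strand): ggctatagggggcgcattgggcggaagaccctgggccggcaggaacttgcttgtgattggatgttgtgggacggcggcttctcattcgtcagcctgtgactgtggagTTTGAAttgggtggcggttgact
MKI67 (GRCh38.p14, chr10:128126424-128126553, minus strand): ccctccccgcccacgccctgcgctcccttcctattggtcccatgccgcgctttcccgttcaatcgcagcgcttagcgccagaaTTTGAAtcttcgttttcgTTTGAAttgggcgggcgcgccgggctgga
CDC20 (GRCh38.p14, chr1:43358731-43358980, plus strand): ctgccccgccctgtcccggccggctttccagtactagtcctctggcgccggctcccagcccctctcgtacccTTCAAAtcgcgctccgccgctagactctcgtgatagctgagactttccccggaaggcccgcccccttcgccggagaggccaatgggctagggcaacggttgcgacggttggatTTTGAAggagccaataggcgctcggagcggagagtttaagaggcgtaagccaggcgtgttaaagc
TOP2A (GRCh38.p14, chr17:40417897-40418146, minus strand): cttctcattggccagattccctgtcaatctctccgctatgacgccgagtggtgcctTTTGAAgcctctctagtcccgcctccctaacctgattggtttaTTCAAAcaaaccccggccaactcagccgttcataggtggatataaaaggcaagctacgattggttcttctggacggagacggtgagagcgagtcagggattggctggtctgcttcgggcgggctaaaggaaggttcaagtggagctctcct
The CHR of CDCA8 lay 23 to 18 bases before the start, those of MKI67 at 47 to 42 and 29 to 24, those of CDC20 at 178 to 173 and 65 to 60, and those of TOP2A at 194 to 189 and 151 to 146. CDC20, the activator of the anaphase-promoting complex, rose by 0.89 ± 0.044, and TOP2A, which untangles DNA for mitosis, by 0.88 ± 0.044. None of the marked stretches overlapped another motif searched. The group's rise in the counts is a measurement on its own, and whether these elements took part was not tested.

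Genes of DNA replication and the G1/S step moved little in comparison. Of 41 tested, 17 were higher, 9 lower, and the median was 0.027. ORC6, of the origin recognition complex, was higher by 0.73 ± 0.075, CCNE1 (cyclin E1) by 0.67 ± 0.057, and E2F7, an atypical E2F, by 0.60 ± 0.087, whereas E2F2, a transcription factor of S-phase genes, was lower, at -0.87 ± 0.070. CDC6, which loads the replicative helicase, had 2093, 2079, and 2078 at 2 h and 2208, 2304, and 2112 at 12 h and was not called (adjusted p = 0.107). With spike-in totals as library sizes 11 of the 41 were higher and 2 lower.

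Genes of the machinery that builds ribosomes rose as a group. Of 50 ribosome biogenesis genes, 47 were higher, 1 was lower, and the median was 0.59. UTP20, part of the small-subunit processome, had 1269.8, 1133, and 1346 at 2 h and 2986, 2993, and 3063 at 12 h, a difference of 1.28 ± 0.062 (adjusted p = 3.23e-19). LYAR, a nucleolar protein, had 1045, 1087, and 1056 at 2 h and 2197, 2198, and 2158 at 12 h (1.04 ± 0.058), and NCL (nucleolin), at a far higher level, 41498, 41061, and 41863 at 2 h and 70128, 69124, and 68350.5 at 12 h (0.74 ± 0.037). WDR12 and RRP9, which act in large and small subunit assembly, were at 0.89 and 0.86. In UTP20, LYAR, and NCL the 12 h libraries lay above the 2 h libraries and above the mean in Met+ medium, which was 1378 ± 75.0 for UTP20, 973 ± 71.6 for LYAR, and 38669 ± 883 for NCL. RRP12, which helps to export the small subunit, was the member that was lower, at -0.15 ± 0.047 (adjusted p = 0.00586). SNHG1, a host transcript of small nucleolar RNAs, had 2236, 2137, and 2354 at 2 h and 5438, 5348, and 5579 at 12 h (1.29 ± 0.045, adjusted p = 2.59e-25). The cytosolic ribosomal proteins themselves rose less: 38 of 78 were higher, 2 lower, and the median was 0.12. Tested against a fold of 1.2 with edgeR's glmTreat, 0 of them were called higher, and with spike-in totals as library sizes 16 were. RPL7 rose by 0.29 ± 0.044 (adjusted p = 3.71e-07), RPS23, RPL34, and RPL38 were at 0.28, 0.28, and 0.27, and RPL5 was at 0.27 (adjusted p = 1.64e-07).

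Heat shock genes, mostly cytosolic but with the mitochondrial HSPD1 and HSPE1, were higher in 13 of 20 cases and lower in 2, with a median of 0.55. CHORDC1, a cochaperone of HSP90, had 1689, 1668, and 1720.2 at 2 h and 4084, 4410.5, and 4316 at 12 h, a difference of 1.34 ± 0.063 (adjusted p = 4.59e-18). HSPH1, HSPA8, and HSP90AA1, all abundant chaperones, rose by 0.85 ± 0.046, 0.69 ± 0.055, and 0.53 ± 0.044. Their 12 h libraries were above the 2 h libraries in every case, as HSPA8 shows with 51542, 51815, and 58421 at 2 h and 86522, 88798, and 84912 at 12 h. HSPD1, the chaperonin of mitochondria, rose by 0.84 ± 0.040. HSPB1, the small heat shock protein HSP27, went the other way, at 18437, 18364, and 15189 at 2 h and 8891, 8335, and 8667 at 12 h (-1.01 ± 0.082, adjusted p = 3.84e-09).

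Targets of ATF4 and CHOP, the genes of the integrated stress response, fell in R8. Of 36 tested, 26 were lower at 12 h, beside 31.8% of all genes, 4 were higher, and the median was -0.60. ASNS (asparagine synthetase) had 5109, 5234, and 4955 at 2 h and 2253, 2269.6, and 2161 at 12 h, a difference of -1.20 ± 0.071 (adjusted p = 9.91e-13), against 4947 ± 508 in Met+ medium. STC2 (stanniocalcin 2) had 8193, 9147, and 7515 at 2 h and 2904, 3260.3, and 3118 at 12 h (-1.42 ± 0.087, adjusted p = 6.37e-11), and TRIB3, which restrains AKT, 5064, 5295, and 4434 at 2 h and 2590.2, 2568, and 2599.8 at 12 h (-0.93 ± 0.099, adjusted p = 1.93e-07). These 3 genes were below their Met+ level at 12 h, TRIB3 having been at 4263 ± 533 and STC2 at 6281 ± 770.4. SLC7A11, the cystine importer, had 3212, 2997, and 2866 at 2 h and 816, 1181, and 1001 at 12 h (-1.61 ± 0.12), and the hormone FGF21, 76.8, 95.1, and 61.7 at 2 h and 19.7, 18.2, and 13.2 at 12 h (-2.23 ± 0.25). PCK2, the mitochondrial PEP carboxykinase, was lower, at -1.47 ± 0.13. CHAC1, which breaks down glutathione, was lower, at -0.89 ± 0.11, and PPP1R15A (GADD34), which restarts translation, at -0.51 ± 0.056. ATF4 itself was lower, at -0.31 ± 0.034. DDIT3 (CHOP) had 100.2, 116, and 92.5 at 2 h and 133, 100.2, and 123 at 12 h and was not called (adjusted p = 0.201). DDIT4 (REDD1), an inhibitor of mTORC1, was higher, at 2769.9, 2561, and 2669 at 2 h and 5833, 5993, and 6054 at 12 h (1.16 ± 0.068, adjusted p = 4.06e-13), and had been far higher still at 0.5 h, 21735 ± 668.

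Chaperones and degradation factors of the endoplasmic reticulum were divided, with 11 of 28 lower, 6 higher, and a median of -0.080 (6 and 2 with spike-in totals as library sizes). HERPUD1, of the degradation complex, had 3465, 3688, and 3072 at 2 h and 1378, 1635, and 1619.9 at 12 h (-1.15 ± 0.078), XBP1, a transcription factor of the unfolded protein response, was lower, at -0.97 ± 0.053, and HSPA5 (BiP) at -0.25 ± 0.038. CREB3L2, a stress sensor of this organelle, and SEC24D, of its export coat, were lower, at -0.92 ± 0.055 and -0.85 ± 0.086. Aminoacyl-tRNA synthetases were divided too, with 6 of 20 higher, as KARS for lysine (0.52 ± 0.036), and 9 lower, as AARS for alanine (-0.89 ± 0.045), and MARS for Met, GARS for glycine, and SARS for serine (-0.70, -0.61, and -0.61). Serine, glycine, and folate enzymes had 9 of 18 lower and 3 higher (5 and 2 with spike-in totals). PHGDH, PSAT1, PSPH, SHMT2, MTHFD2, and ALDH1L2 are also on the ATF4 and CHOP list and were counted there too. PHGDH and PSAT1, which take serine synthesis through its opening steps, were both lower at 12 h. PHGDH had 16355, 19664, and 17143 at 2 h and 10756, 9823, and 10401 at 12 h (-0.78 ± 0.087). PSAT1 had 8586, 8992, and 8740.0 at 2 h and 4891, 5826, and 5202 at 12 h (-0.73 ± 0.050). The mitochondrial folate enzymes ALDH1L2 and SHMT2 were lower, at -1.31 ± 0.096 and -0.53 ± 0.059. AMT, of glycine cleavage, was at -0.93 ± 0.34, and was not called without library 1 of 2 h or library 1 of 12 h (adjusted p = 0.107 and 0.0858).

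A list of 24 tested genes covered the Met cycle and Hcy disposal, and also polyamine synthesis, Met salvage, folate uptake, and vitamin B12 handling. Of these, 14 were higher, 7 lower, and the median was 0.27 (14 and 4 with spike-in totals as library sizes). MTR (methionine synthase), which makes Met from Hcy, had 1225, 1147, and 1329 at 2 h and 1603, 1624, and 1595 at 12 h, a rise of 0.39 ± 0.056 (adjusted p = 1.09e-07). AHCY, which releases Hcy from S-adenosylhomocysteine, rose by 0.27 ± 0.041. On the route that disposes of Hcy by transsulfuration, CBS had 324, 319, and 290.2 at 2 h and 118, 113, and 131 at 12 h, and CTH, 525, 558, and 531 at 2 h and 165, 246, and 211 at 12 h. Both enzymes were lower at 12 h with no overlap, at -1.37 ± 0.13 (adjusted p = 1.52e-10) and -1.39 ± 0.15 (adjusted p = 4.01e-08). MAT2A, which makes S-adenosylmethionine, had 16894, 17797, and 17937 at 2 h and 14029, 14616, and 15453 at 12 h, lower, at -0.26 ± 0.047 (adjusted p = 1.10e-05), while still above its level in Met+ medium, 9422 ± 543. With spike-in totals as library sizes the MAT2A difference was not called (adjusted p = 0.251). The polyamine enzymes SRM and ODC1 rose, SRM with 4729.5, 4776, and 4720.5 at 2 h and 9366, 8190.1, and 8360.0 at 12 h (0.87 ± 0.048, adjusted p = 7.62e-19) and ODC1 by 0.42 ± 0.053, and so did SLC19A1, the folate carrier, by 0.83 ± 0.076. BHMT, the liver enzyme that remethylates Hcy with betaine, was at most 11.7 in any library and was not called (adjusted p = 0.114).

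Enzymes of sterol synthesis fell. Of 24 enzymes, 21 were lower, 0 were higher, and the median was -0.60. HMGCS1, at the start of the mevalonate route, had 5911, 5768, and 5729.9 at 2 h and 2461, 2682, and 2639 at 12 h, a difference of -1.16 ± 0.044 (adjusted p = 2.72e-24). Its 12 h libraries were well below the 2 h libraries, and its level in Met+ medium was 5671 ± 139. FAXDC2, MSMO1, and MVD, further enzymes of the route, were at -1.06, -1.06, and -1.01. With libraries thinned to the smallest, FAXDC2 was at -0.69 and was not called (adjusted p = 0.0903). LBR, a sterol reductase of the nuclear envelope, was among the 3 that were not called, at 0.089. Regulators and transporters of cholesterol went the same way in 16 of 20 cases, with 2 higher and a median of -0.63. INSIG1, which retains SREBP when sterols are plentiful, had 4228, 4432, and 3771 at 2 h and 659, 736, and 762 at 12 h (-2.53 ± 0.13, adjusted p = 5.90e-12). ABCG1, which exports cholesterol and is a target of the liver X receptors, had 265, 292, and 254 at 2 h and 32.2, 47.8, and 44.4 at 12 h (-2.72 ± 0.14). SREBF1 was lower, at -0.75 ± 0.048.

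FA synthesis genes were lower in 15 of 32 cases and higher in 4, with a median of -0.15. FASN, the FA synthase, had 43934, 46613, and 40813 at 2 h and 27113, 22985, and 26090.0 at 12 h, a difference of -0.79 ± 0.065 (adjusted p = 6.39e-10), and SCD, the stearoyl-CoA desaturase, 45262, 47204, and 46515 at 2 h and 28812, 27485, and 30309.6 at 12 h (-0.68 ± 0.040). ACSS2, which makes acetyl-CoA from acetate, and ACSL1, which activates long-chain FA, were lower, at -1.30 ± 0.072 and -1.01 ± 0.037, and ACLY, which makes cytosolic acetyl-CoA from citrate, at -0.38 ± 0.043. The desaturases FADS2 and FADS1 were at -0.93 and -0.88. ELOVL6, which elongates palmitate, had 2281, 2237, and 2181 at 2 h and 2104, 2096, and 2219 at 12 h and was not called (-0.062 ± 0.042, adjusted p = 0.197), and its sign turned with spike-in totals as library sizes. FA beta-oxidation genes were lower in 20 of 34 cases and higher in 2, with a median of -0.22, and with spike-in totals 9 were lower. CRAT (carnitine acetyltransferase) had 163, 175, and 137 at 2 h and 76.9, 74.0, and 68.9 at 12 h (-1.14 ± 0.14, adjusted p = 6.43e-09), and the acyl-CoA dehydrogenases ACADM and ACADS were lower, at -0.25 ± 0.049 and -0.67 ± 0.12. With spike-in totals as library sizes ACADM was not called (-0.18, adjusted p = 0.277). ACOX2, a peroxisomal oxidase, rose by 0.84 ± 0.18. CPT1A, the gate of FA entry into mitochondria, was at 3292, 3016, and 3239 at 2 h and 3196, 3223, and 3086 at 12 h and was not called (adjusted p = 0.940). PDK4, which holds back pyruvate oxidation and favours FA use, was one of the deepest falls of all, from 176, 276, and 222 to 8.94, 10.2, and 6.61 (-4.71 ± 0.25, adjusted p = 2.10e-19). Phospholipid and triglyceride genes divided evenly, with 11 higher and 11 lower of 27 (7 and 8 with spike-in totals). MGLL, the monoacylglycerol lipase, had 248, 226, and 265 at 2 h and 802, 714, and 716 at 12 h (1.60 ± 0.099), and GPAT3, of triglyceride synthesis, 575, 532, and 587 at 2 h and 179.7, 202, and 145 at 12 h (-1.69 ± 0.10). The phosphatidate phosphatases LPIN2 and LPIN3 were at -0.98 and -0.97.

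**Figure D3:**
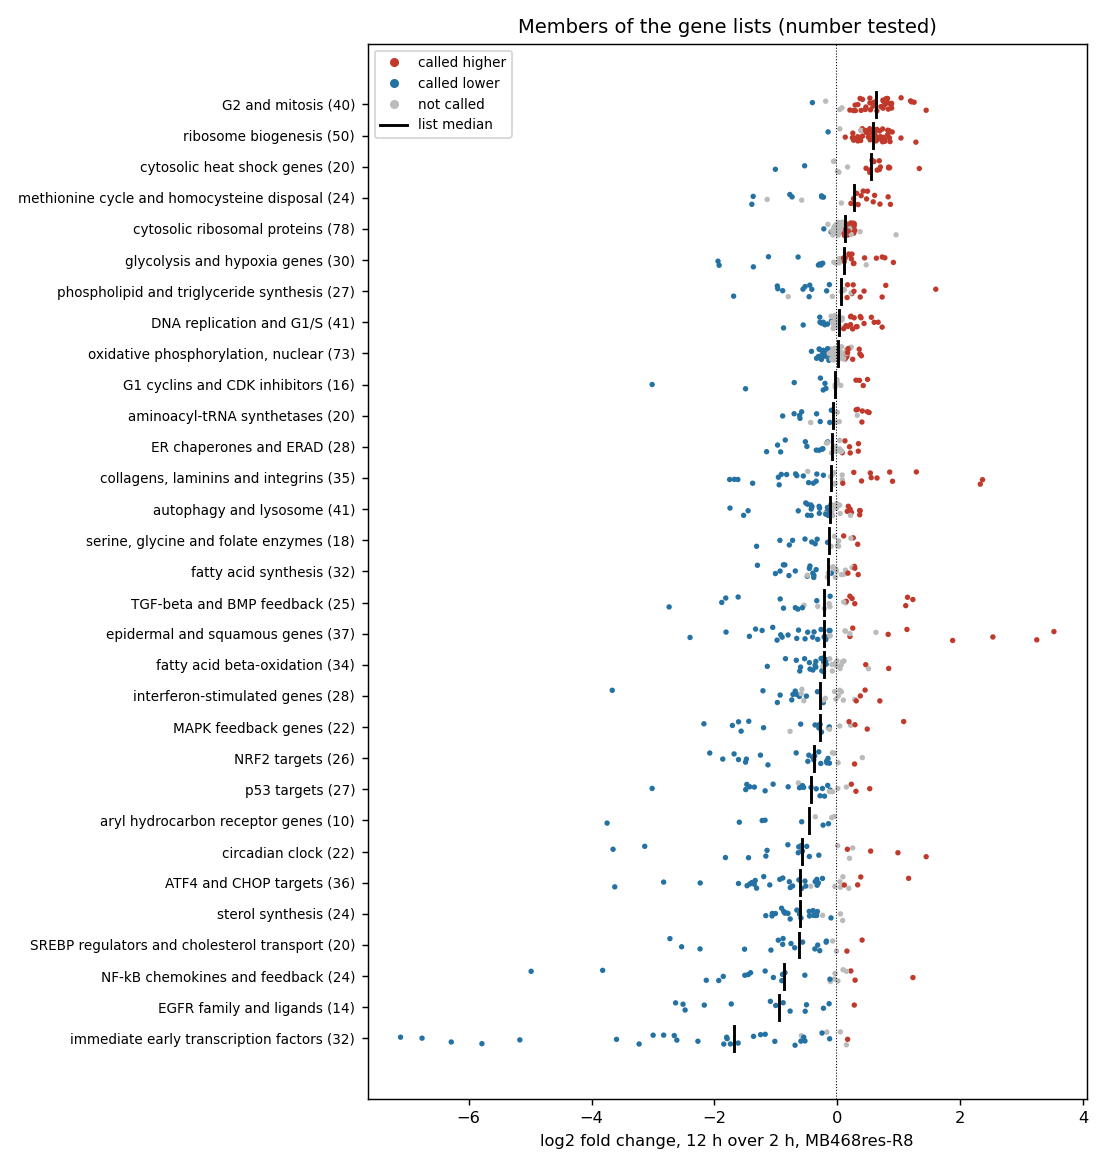
Log2 fold change of 12 h over 2 h in R8 for every tested member of 31 gene lists, ordered by list median (black bar); red and blue points were called higher and lower, gray points were not called, and the dotted line marks the median of all genes tested, -0.015. G2 and mitosis (median 0.63) and ribosome biogenesis (0.59) stand at the top and the immediate early list (-1.68) at the bottom.

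Genes of energy metabolism were divided. Of 73 nuclear genes of oxidative phosphorylation, 13 were higher and 17 lower, with a median of 0.0085, and with spike-in totals as library sizes 4 were higher and 1 lower. NDUFS7, a subunit of complex I, was at -0.42, and NDUFC2, UQCRFS1, and NDUFV3 were at 0.39, 0.37, and 0.36. Glycolysis and hypoxia genes had 15 of 30 higher and 9 lower (8 and 5 with spike-in totals). CA9, a carbonic anhydrase induced by hypoxia, had 623, 645, and 592 at 2 h and 1202, 1188, and 1125 at 12 h (0.91 ± 0.073, adjusted p = 5.34e-14). SLC2A3, a glucose transporter, went from 34.1, 26.5, and 23.8 to 7.15, 11.4, and 3.78 (-1.94 ± 0.39), and ANKRD37, the lactate exporter SLC16A3, and the peptide ADM were at -1.92, -1.36, and -1.12. Targets of NRF2, the antioxidant factor, were lower in 21 of 26 cases and higher in 1, with a median of -0.38. HMOX1 (heme oxygenase 1) had 1466, 1759.5, and 1475 at 2 h and 405, 345, and 368 at 12 h (-2.08 ± 0.11, adjusted p = 1.52e-12), the aldo-keto reductases AKR1C3 and AKR1C1, which are alike enough to share reads, were at -1.86 and -1.68, and NQO1 was at -0.048 and not called. Autophagy and lysosome genes were lower in 20 of 41 cases and higher in 7 (10 and 4 with spike-in totals), and WIPI1, which binds the forming autophagosome, was lower, at -1.75 ± 0.074. ULK1, the kinase that starts autophagy, GABARAPL1, and SQSTM1 were at -1.52, -1.45, and -0.63.

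Aryl hydrocarbon receptor genes were lower in 7 of 10 cases and higher in 0. CYP1A1, the cytochrome that this receptor induces most, had 2195, 2338, and 2284 at 2 h and 173, 183, and 153 at 12 h, a difference of -3.75 ± 0.084 (adjusted p = 7.79e-28). It had been at 4944 ± 469.9 at 0 h. CYP1B1, its relative, had 21759, 21497, and 21138 at 2 h and 6857, 7637, and 6851 at 12 h (-1.59 ± 0.043), and the feedback gene TIPARP was lower, at -1.22 ± 0.11. ALDH3A1 was lower, at -1.17 ± 0.27. The receptor AHR was lower, at -0.58 ± 0.049.

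Genes of squamous differentiation and of the matrix supplied 4 of the 12 largest rises among genes that were at 1 CPM or more at the higher time and whose groups did not overlap. SERPINB3 and SERPINB4, neighbouring serpins so alike that reads can be split between them, rose from levels below 10 at 2 h. SERPINB3 had 9.60, 3.88, and 2.80 at 2 h and 51.9, 62.6, and 75.5 at 12 h (3.53 ± 0.43). SERPINB4 had 3.20, 9.71, and 5.61 at 2 h and 57.2, 75.2, and 61.4 at 12 h (3.25 ± 0.39). TGM2, a transglutaminase that crosslinks proteins, had 19.2, 18.1, and 15.4 at 2 h and 128, 82.0, and 99.1 at 12 h (2.53 ± 0.32, adjusted p = 9.80e-09), and KRT6A, a keratin of activated epidermis, 214, 251, and 215 at 2 h and 956, 754, and 809 at 12 h (1.88 ± 0.13, adjusted p = 6.15e-14). The list as a whole went the other way in number, with 23 of 37 lower, 8 higher, and a median of -0.21 (15 and 8 with spike-in totals). KRT16, the usual companion of KRT6A, fell by 1.81 on the log2 scale, with 14524, 17570.1, and 14665 at 2 h and 4669, 4401, and 4275 at 12 h, and SERPINB2 had 32.0, 43.4, and 44.9 at 2 h and 5.36, 6.83, and 10.4 at 12 h (-2.40 ± 0.29). Of 35 collagens, laminins, integrins, and related genes, 11 were higher and 16 lower. TNC (tenascin C), a matrix glycoprotein of wounds and tumors, had 982, 993, and 1225 at 2 h and 5690.1, 5271, and 5389 at 12 h (2.37 ± 0.11, adjusted p = 7.50e-13), and P3H2, a collagen prolyl hydroxylase, 112, 114, and 154 at 2 h and 558, 567, and 599 at 12 h (2.21 ± 0.12). PLAUR and MMP14, which act in matrix breakdown, were lower, at -1.67 ± 0.11 and -1.62 ± 0.13. PLAU (urokinase) had 4674, 5329, and 4063 at 2 h and 1346, 1434, and 1418 at 12 h (-1.75 ± 0.10). VIM (vimentin), an intermediate filament of mesenchymal cells that basal breast lines also make, had 924, 1055, and 1084 at 2 h and 3982, 3402, and 3622 at 12 h, a rise of 1.85 ± 0.074 (adjusted p = 2.16e-19).

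Feedback genes of TGF-beta and BMP signaling had 11 of 25 lower and 7 higher. ID3, a target of BMP, had 4679, 5674, and 3589 at 2 h and 1291, 1238, and 1282 at 12 h (-1.88 ± 0.11), while ID4 and ID2 were at -1.81 and -1.61. KDR, a receptor of vascular endothelial growth factor that counts among the endothelial markers, had 1333, 1365, and 1256 at 2 h and 169, 219.8, and 197 at 12 h (-2.77 ± 0.16, adjusted p = 6.60e-11). It was expressed in both lines, and with VWF (-3.44 ± 0.47) and CDH5 (-2.60 ± 0.41) it made up the 3 endothelial markers that were lower, of 4 tested. Of the other markers, ESR1, ERBB2, and KRT17 were at -1.22, -1.09, and -0.98, the monocyte marker CD14 at -1.36, COL1A1 at -0.95, and CD68 at 0.45, which was not called without library 2 of 2 h (adjusted p = 0.07). Of 12 tested RNAs of the list taken to lack a poly(A) tail, 0 were higher and 3 lower. These 3 were the histone genes HIST1H1C, HIST1H2AC, and HIST1H2BK (-0.59, -0.59, and -0.45).

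**Figure D4:**
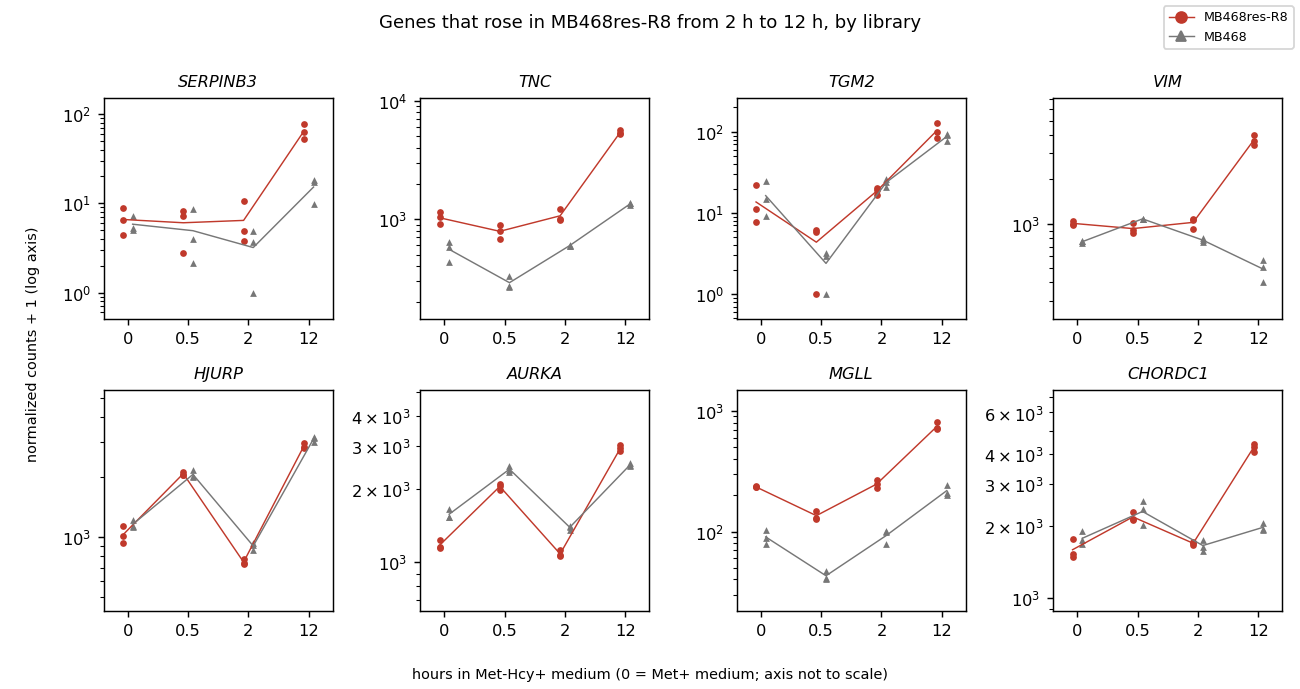
Normalized counts plus 1 on a log axis for 8 genes that rose in R8, drawn as in the plot of falling genes. In each panel the 3 R8 libraries at 12 h lie above the 3 at 2 h; HJURP and AURKA were lower at 2 h than at 0.5 h in both lines.

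Among genes outside the lists, 3 falls had the smallest p-values of the whole comparison. TM4SF1, a membrane protein of the tetraspanin-like family, had 21997, 24138, and 22642 at 2 h and 5216, 5562, and 5284 at 12 h (-2.10 ± 0.049, adjusted p = 3.80e-29). ST3GAL1, a sialyltransferase, had 8962, 9495, and 9020.4 at 2 h and 2596, 2465, and 2576 at 12 h (-1.85 ± 0.046), and TP53INP2, which takes part in autophagy, 1459, 1563, and 1403 at 2 h and 150.2, 148, and 112 at 12 h (-3.44 ± 0.087). Among the deepest falls of genes at low level were TNFRSF8 (40.5, 57.6, and 50.5 at 2 h, 4 reads in all at 12 h) and SH2D1A (46.9, 57.6, and 71.5 at 2 h, 6 reads at 12 h), which are genes of lymphocytes, and LINC00675 and C1orf95, with 3 reads each at 12 h against 114 and 82 at 2 h. The largest rises at low level were those of AOX1, an aldehyde oxidase, with 2.13, 1.94, and 2.80 at 2 h and 24.1, 21.6, and 39.6 at 12 h (3.63 ± 0.55), LYPD1, with 4.26, 9.06, and 5.61 at 2 h and 38.4, 39.9, and 40.6 at 12 h (2.54 ± 0.41), and PYGO1, of Wnt signaling, with 4.26, 8.41, and 4.21 at 2 h and 22.4, 42.1, and 33.0 at 12 h (2.38 ± 0.39). NALCN, a sodium leak channel, rose from 39.4, 29.8, and 33.6 to 178, 189, and 191 (2.45 ± 0.18), and TENM2, a teneurin, by 2.24 ± 0.36. HRAS and SCRIB also passed, and rested on few libraries: HRAS had 0, 1.94, and 0 at 2 h and 2.68, 84.3, and 5.66 at 12 h, and was not called in 4 of the 6 fits that left out 1 library (adjusted p from 0.0899 to 0.514, the last without library 2 of 12 h). SCRIB, at 33.1, 32.4, and 19.6 at 2 h and 218, 72.9, and 177 at 12 h, was not called in 5 of the 6 (adjusted p from 0.0676 to 0.0951).

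The parental line over the same interval shows which of these changes were shared. In MB468, 10278 of the 14741 genes were called from 2 h to 12 h, 5097 higher and 5181 lower. Counts of list members in MB468 are read beside these. Of the 10278, 5462 were called in R8 in the same direction and 1621 in the opposite one. Of the latter, 871 were higher in R8 and lower in MB468, and 750 the reverse. The difference between the lines, the R8 change minus the MB468 change, was tested in the same model and called in 8222 genes (55.8%): R8 was above MB468 in 3870 (26.3%) and below in 4352 (29.5%). This split depended on scaling. With spike-in totals as library sizes 4891 were called, 28.2% of them with R8 above in place of 47.1%, and the median difference of all genes went from -0.042 to -0.16. List medians and counts that follow are read beside that shift.

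Targets of ATF4 and CHOP changed differently in the lines in most members. In MB468, 20 of the 36 were higher at 12 h and 12 lower, with a median of 0.32, and the change in R8 was below that in MB468 in 28 genes and above it in 2 (26 and 1 with spike-in totals). CHAC1 differed by -0.89 ± 0.11 in R8 and by 1.44 in MB468, where it went from 956 ± 121 to 2598 ± 15.7 (line difference -2.33 ± 0.13, adjusted p = 2.90e-17). STC2 was at 1.01 in MB468 (line difference -2.44 ± 0.12, adjusted p = 3.63e-12), TRIB3 at 1.02 (-1.96 ± 0.14), and CEBPG, which pairs with ATF4, at 1.54 (-1.87 ± 0.061). ASNS was lower in both lines, at -1.20 in R8 and -0.92 in MB468 (line difference -0.28 ± 0.098, adjusted p = 0.0194). MAT2A was higher by 0.91 in MB468 (line difference -1.17 ± 0.066, adjusted p = 1.54e-17). CBS and CTH, which fell in R8, were at 0.050 and 0.24 in MB468 and not called there, and the lines differed by -1.42 ± 0.18 and -1.63 ± 0.19.

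Sterol synthesis fell in both lines and less in R8. The median in MB468 was -1.49, 23 of the 24 enzymes were lower there, and R8 was above MB468 in 21 and below in 0 (14 and 0 with spike-in totals). HMGCS1 was at -2.53 in MB468, from 10709 ± 524 to 1860.1 ± 70.1, which is a higher start than in R8 (line difference 1.36 ± 0.061, adjusted p = 2.99e-21). FASN (-1.68 in MB468, line difference 0.90 ± 0.092) and ELOVL6 (-1.18, 1.12 ± 0.060) showed the same order, and so did the beta-oxidation gene ACADM (-1.06, 0.81 ± 0.071). ABCG1 did not: it was at -0.86 in MB468 and fell more in R8 (-1.86 ± 0.19, adjusted p = 4.07e-11).

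The lists that rose in R8 were also compared between the lines. For G2 and mitosis the MB468 median was 0.094, with 20 higher and 12 lower, and R8 was above in 30 and below in 2 (18 and 1 with spike-in totals). CCNB1 was at -0.16 in MB468 (line difference 0.99 ± 0.068, adjusted p = 9.37e-16), whereas AURKA rose in both (0.85 in MB468) and MKI67 rose more in MB468 (1.50, line difference -0.31 ± 0.066). Cytosolic ribosomal proteins had a median of -0.44 in MB468, where 73 of 78 were lower, and R8 was above in 73 and below in 1 (37 and 0 with spike-in totals). RPL5 was at -1.14 in MB468 (line difference 1.40 ± 0.056, adjusted p = 8.38e-23). For ribosome biogenesis R8 was above in 33 of 50 and below in 7 (13 and 6 with spike-in totals). For the heat shock genes R8 was above in 13 of 20 and below in 5 (12 and 2 with spike-in totals). Of these, HSPA8 and HSP90AA1 were at -0.59 and -0.97 in MB468, and the lines differed by 1.27 ± 0.079 and 1.50 ± 0.062. VIM, which rose in R8, was lower in MB468, from 774 ± 23.8 to 492 ± 81.3 (line difference 2.50 ± 0.11, adjusted p = 1.08e-17).

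Immediate early genes fell in both lines, and more members fell further in R8 than in MB468. In MB468, 29 of the 32 were lower with a median of -1.33, and R8 was below MB468 in 17 and above in 6. NR4A1 was at -4.33 in MB468, ending at 785 ± 20.2 (line difference -2.43 ± 0.45, adjusted p = 1.79e-04), and EGR3 at -2.93 (-2.85 ± 0.56). For EGR1, at -1.61 in R8 and -1.61 in MB468, the line difference of -0.0060 ± 0.16 was not called (adjusted p = 0.978), nor was that of AREG, at 0.023 ± 0.24 (adjusted p = 0.947). CDKN2B fell in R8 and was higher by 0.31 in MB468 (line difference -1.80 ± 0.083, adjusted p = 6.93e-21). The clock genes RORA and DBP fell in R8 and were not called in MB468 (-0.10 and 0.21), and the lines differed by -1.72 ± 0.35 and -1.35 ± 0.17. One MB468 library at 2 h, replicate 2, stood apart, where RNAs of the list taken to lack a poly(A) tail took 0.188% of all counts. Without this library 7986 genes were called for the line difference.

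**Figure D5:**
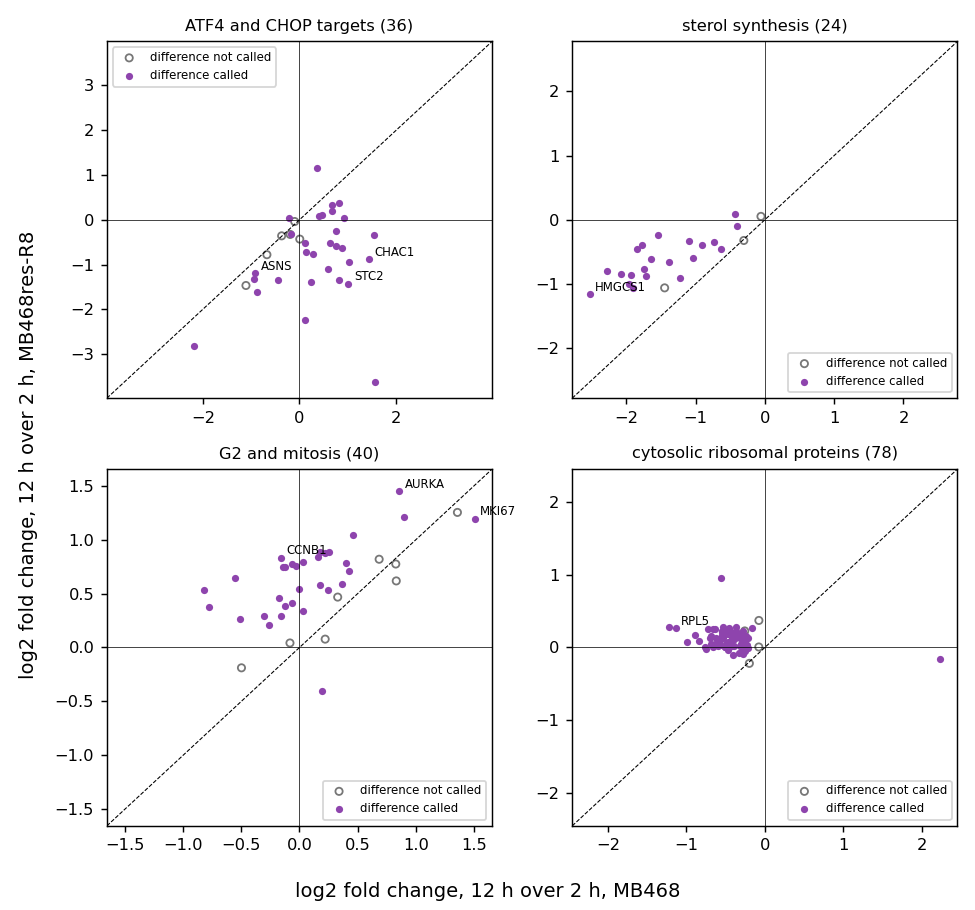
Log2 fold change of 12 h over 2 h in R8 against that in MB468 for 4 gene lists; purple points have a called difference between the lines, open points do not, and the dashed line marks equal change. ATF4 and CHOP targets lie mostly below the dashed line (28 called below, 2 above), sterol synthesis above it (21 and 0 below), G2 and mitosis above it (30, and 2 below), and cytosolic ribosomal proteins above it (73, and 1 below).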

How the data were processed

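RNA sequencing libraries were made with poly(A) selection (TruSeq v2, which does not mark strand) from MB468 and R8 cells, with spike-in RNAs added. Per the methods and the submitters' processing notes, the authors aligned reads with HISAT2 2.1.0 to GRCh38/hg38 plus the spike-ins and counted them per gene with featureCounts (Subread 1.5.3). The deposited raw counts were used. A deposited normalized table, which covers fewer libraries, and a table of the authors' own fold changes and p-values were not used. Without strand, reads of overlapping and antisense genes cannot be told apart. Mitochondrial genes were not analysed here. A few genes that the rules would name are not reported here.

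The gene lists and named genes were chosen with earlier results of these data known. Some lists share members, which are counted in each. All 24 libraries were fitted with edgeR 4.0.16 in R 4.3.3: filterByExpr (minimum count 10, minimum total 15), TMM library sizes, 8 group means, 16 residual degrees of freedom, and the robust quasi-likelihood test. P-values were adjusted by the Benjamini-Hochberg method over all tested genes, with a call at an adjusted p under 0.05. Groups follow the labels. The contrasts were R8 at 12 h minus 2 h, and that difference minus the same in MB468. To normalize, each deposited count was divided by its TMM library size and multiplied by the mean size. Total counts per library ran from 11745553 to 36496655, and depth limits genes of few reads. Replicate libraries of a group differed by more than sampling noise, so none was merged.

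The genes named were, with at least 1 CPM at the higher time (1 CPM in either line for the last), the 12 largest rises and falls among called genes with groups that did not overlap, the 3 smallest p-values in each direction, up to 4 called members of each list with the largest change plus members the study names, and the 6 largest line differences in each direction. Further list members were named for their known roles after their values were seen. Gene entries were matched to RefSeq (GRCh38.p14) by gene ID (25332 entries), symbol (12), or synonym (674), and 627 were unmatched. Promoter stretches are from that table. The code was tested on simulated data in which few genes changed. Genes with a true log2 change of 0.5 were called in 67.69% of cases, and those of 1 and 2 in 100%. Of all calls, 7.73% were unchanged genes. Most genes were called in the real data, so these rates may not carry over. Alternatives were DESeq2 1.42.0, limma 3.58.1 (voom), other library sizes and filters, glmTreat, thinned libraries, subsets of libraries, a replicate block, and leaving out each library.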

Additional observations from a re-analysis of the deposited data

Results flagged for a closer look

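The change from 2 h to 12 h differed between R8 and MB468 in 8222 genes by the test of the difference itself, and the genes with the largest differences at 1 CPM or more are given as values. R8 was above MB468 on the log2 scale by 8.02 for HRAS, 7.28 for VPS52, 6.42 for PSMB3, 4.38 for SNORA73B, 4.38 for HIST1H4E, and 4.12 for INTS3. In these the counts of single libraries jumped: HRAS had 0, 1.94, and 0 at 2 h and 2.68, 84.3, and 5.66 at 12 h in R8, and its difference was not called without that library 2 of 12 h or without library 1 of MB468 at 2 h (adjusted p = 0.147 and 0.312). VPS52 was not called without library 3 of MB468 at 2 h (adjusted p = 0.160). PSMB3, at 602 in library 3 of R8 at 12 h and at most 38.4 in the other R8 libraries of 2 h and 12 h, was not called without that library (adjusted p = 0.279) or without library 1 of MB468 at 2 h (0.344), and INTS3 was not called without library 3 of R8 at 12 h (0.174) or library 3 of MB468 at 2 h (0.252). VPS52, PSMB3, INTS3, SNORA73B, and HIST1H4E were not called in R8 itself. SNORA73B and HIST1H4E rested on library 2 of MB468 at 2 h, without which they were at 1.30 (adjusted p = 0.0526) and 0.68 (adjusted p = 0.409).

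R8 was below MB468 in the others, at -6.89 for LY9, -5.93 for CHRNA9, -5.53 for ADH7, -5.32 for TNFRSF1B, -5.18 for GDF15, and -5.12 for LINC00624. TNFRSF1B and ADH7 had no read in R8 at 12 h, so that these fitted values are no bounds. CHRNA9, an acetylcholine receptor subunit, had 20.3, 23.3, and 5.61 at 2 h and 0.894, 1.14, and 0 at 12 h in R8. GDF15, a stress hormone and ATF4 and CHOP target, held 44 reads in R8 at 2 h and 3 at 12 h, and in MB468 it went from 24.5 ± 5.26 to 71.1 ± 5.50 (SD, n = 3). LY9 and LINC00624 were not called in R8 itself.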

How the results depend on the processing

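The count of 9213 called genes stayed within 1.5 times under every alternative run except a test against a fold of 1.2 (glmTreat), which called 5413. The next lowest count was 6506, with spike-in totals as library sizes, where 53.1% of calls were higher in place of 49.1%. The count at 2-fold or more went from 1598 to 913, and its higher part from 278 to 138, when each library had to hold at least 10 counts of a gene, a filter that also removes genes near 0 at one time. With spike-in totals as library sizes the line difference was called in 4891 genes in place of 8222, and ELOVL6 changed sign, at 0.0061 (adjusted p = 0.976). The cause was not tested. Leaving out 1 library at a time gave 8421 to 8963 called genes, 1490 to 1630 at 2-fold or more, 48.9% to 52.5% of calls higher, and 7839 to 8060 line differences. Of 163 named genes, 149 kept their call under every alternative that tested them. Of 12 named for the line difference, 5 did. Named genes near 0 went untested where each library had to hold at least 10 counts. List counts moved mostly with spike-in totals and with glmTreat, for ribosomal proteins to 16 and 0 higher, beta-oxidation to 9 and 10 lower, and DNA replication to 11 and 6 higher. Libraries of few reads limit genes with fewer than 10 counts.

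A block for the replicate number gave 9157 called genes, and 8160 for the line difference. Deviations of same-numbered libraries at 2 h and 12 h correlated at -0.12, -0.41, and -0.042 over 6441 genes. Those of differently numbered libraries ran from -0.29 (library 3 of 2 h with 1 of 12 h) to 0.42 (2 with 1). Deviations from a mean of 3 libraries tie these values to each other. No pairing by number was seen, and whether libraries shared a batch was not tested.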
